A study of Mus musculus with 8 samples.

Results

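The tumour suppressor p53, encoded by Trp53, and 8 genes that it activates were described in DN3 thymocytes of control and Sel1l CKO mice. The list named Trp53 and 9 targets outside the BCL2 family, and every listed gene with a row in the RPKM table was kept, which gave 9 of 16538 genes: Trp53, Mdm2, Cdkn1a, Ccng1, Zmat3, Trp53inp1, Phlda3, Sesn1 and Tnfrsf10b. The remaining listed gene, Eda2r, is not analysed here. RNA came from DN3 thymocytes, the CD4- CD8- CD44- CD25+ cells that go through β-selection, sorted from C57BL/6 mice at 6 weeks of age. There were 4 libraries of Sel1l-f/f controls (Ctrl) and 4 of Sel1l CKO mice, which are Sel1l-f/f and also carry the hCD2-iCre transgene. Both groups had the floxed Sel1l alleles, and only the Sel1l CKO libraries had the recombinase, so an effect of iCre and an effect of losing SEL1L cannot be told apart here. SEL1L is the adaptor of the HRD1 ubiquitin ligase in ER-associated degradation. The transgene acts from the earliest thymic progenitors on, before the DN3 stage. The labels do not say that each library is a separate mouse, so p-values measure the spread between these libraries.

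p53 is a transcription factor that MDM2 keeps at a low level in healthy cells. DNA breaks and other stresses free it from MDM2, and it then activates genes for cell cycle arrest, DNA repair and death, together with Mdm2 itself, which closes a negative feedback loop. In the thymus, p53 is known as a guard of β-selection: RAG makes breaks at the Tcrb locus in DN3 cells, and thymocytes that lack a pre-TCR signal are held back or die in part through p53. The stability and activity of the p53 protein are set largely after translation, so the mRNA of its targets is the usual readout of its activity. In bulk RNA, fewer cells of a type and less RNA per cell cannot be told apart.

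The letters that p53 binds are shown first. Members were listed as p53 and its known targets, so matches in their promoters follow in part from the listing and are no separate support. p53 binds a pair of copies of its consensus decamer, a motif of 10 letters that reads the same on both strands, with up to 13 letters between the copies. RefSeq promoters (GRCm38.p6), from 250 bases before to 50 bases after a start site, were at hand for 6 of the 9 genes, in 8 promoters. The decamer occurred in 5 of these 8 promoters, among them that of Trp53 itself, and in 8.36% of all 32851 promoters. The pair occurred in 1 of the 8, the promoter of Cdkn1a, and in 0.0731% of all promoters. Capitals mark the decamers, with up to 30 bases on each side, 5′ to 3′ on the strand of the gene.
Cdkn1a, chr17:29090876-29090967, plus strand: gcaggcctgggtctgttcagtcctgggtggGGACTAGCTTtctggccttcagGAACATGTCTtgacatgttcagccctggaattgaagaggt
Mdm2, chr10:117710905-117710974, minus strand: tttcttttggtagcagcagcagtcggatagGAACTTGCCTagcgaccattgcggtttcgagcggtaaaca
Ccng1, chr11:40755432-40755501, minus strand: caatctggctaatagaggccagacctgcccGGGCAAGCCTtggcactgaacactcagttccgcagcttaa
Sesn1, chr10:41887236-41887305, plus strand: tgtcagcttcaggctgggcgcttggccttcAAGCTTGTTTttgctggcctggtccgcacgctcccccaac
Trp53, chr11:69580254-69580323, plus strand: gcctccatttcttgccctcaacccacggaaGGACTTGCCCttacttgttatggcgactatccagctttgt
In Cdkn1a the decamers began 73 and 51 bases before the start site and were 12 bases apart. Only full matches are marked. The 10 letters right after the later Cdkn1a decamer, tgacatgttc, miss a match only at their opening letter and were not counted. The marked pair therefore need not be the pair that p53 uses. The single decamers began 186 bases before the start in Mdm2, 185 in Ccng1, 173 in Sesn1 and 75 in Trp53. No decamer was in the promoter of Phlda3, in that of another start of Cdkn1a or in that of another start of Sesn1. A match describes letters in this window and shows no binding.

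The libraries held between 32900253 and 50401359 reads, as recovered from the smallest steps of the RPKM values. The DN3 markers Il2ra, Ptcra, Rag1 and Thy1 were present in every library. The summed level of 10 DN3 markers was 536 to 580 RPKM in Ctrl and 494 to 511 RPKM in Sel1l CKO. Of the 10, 0 passed limma's adjusted p or that of voom (5.28% and 4.3% of all tested genes). At an unadjusted p under 0.05 there were 4 by each (20.8% and 20.6% of all tested genes). The B cell markers Ms4a1 and Pax5, the stromal markers Krt5, Foxn1 and Col1a1 and 6 of 7 myeloid markers were below 0.1 RPKM in every library. Of the same lists, Cd79b was at 8.18 to 10.1 RPKM in Ctrl and 5.28 to 8.17 RPKM in Sel1l CKO (limma adjusted p = 0.129, voom adjusted p = 0.108), and the myeloid marker Lyz2 at 2.11 to 2.44 and 0.655 to 1.54 RPKM (limma adjusted p = 0.0611, voom adjusted p = 0.0435). Neither overlapped between the groups, and the part of other cells in the results for the p53 list was not tested. The stromal list summed to between 4.61 and 6.05 RPKM in Ctrl and between 2.96 and 3.48 RPKM in Sel1l CKO, and its Epcam fell, with a log2 fold change of -0.95 (limma adjusted p = 0.00273). Its Pdgfrb was at 1.08 to 1.46 RPKM in Ctrl and 0.999 to 1.37 RPKM in Sel1l CKO. The NK cell marker Nkg7 was at 31.1 to 38.3 and 21.7 to 33.9 RPKM (limma adjusted p = 0.242). Of the γδ T cell markers, Blk was at 0.546 to 0.706 and 0.189 to 0.492 RPKM (voom adjusted p = 0.0200). Sox13 of that list was at 1.47 to 1.68 and 1.61 to 2.27 RPKM (limma adjusted p = 0.353). Sel1l itself was at 65.1% of Ctrl, at -0.59 ± 0.13 on the log2 scale (± standard error, limma adjusted p = 0.0327), and the groups did not overlap. Leaving out each library in turn lost that call 6 times in 8, with a limma adjusted p up to 0.0984 without Ctrl replicate 1. For Sel1l, replicates 1 and 2 alone gave -0.89 and replicates 3 and 4 alone gave -0.30. The values cover the whole gene, with none for the floxed part alone.

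None of the 9 genes of the p53 list passed the test between genotypes. Trp53 mRNA in Sel1l CKO DN3 thymocytes was 92.4% of Ctrl, its negative regulator Mdm2 93.5%, and the cell cycle inhibitor Cdkn1a 78.9%. The largest difference was that of Trp53inp1, at 67.5% of Ctrl, followed by Phlda3 at 74.1%. RPKM values are read numbers divided by gene length and by library size. Genes with a mean of at least 1 RPKM were tested by limma on log2(RPKM + 0.1), a scale that understates changes of low genes, with Benjamini-Hochberg adjustment over all 6512 genes tested. Of the 9 genes, 6 passed this filter and 0 of the 6 had an adjusted p under 0.05, against 5.28% of all tested genes. At an unadjusted p under 0.05 there were 3 of 6, against 20.8% of all tested genes. With limma voom on recovered reads, which took in all 9, the numbers were 0 of 9 at the adjusted p (4.3% of 11732 tested genes) and 3 of 9 at the unadjusted p (20.6%). The Ctrl and Sel1l CKO ranges overlapped for 9 of 9 genes, while groups did not overlap for 14.7% of tested genes (9.15% higher and 5.59% lower in Sel1l CKO) and for 10.3% of all genes with a value.

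**Figure D1:**
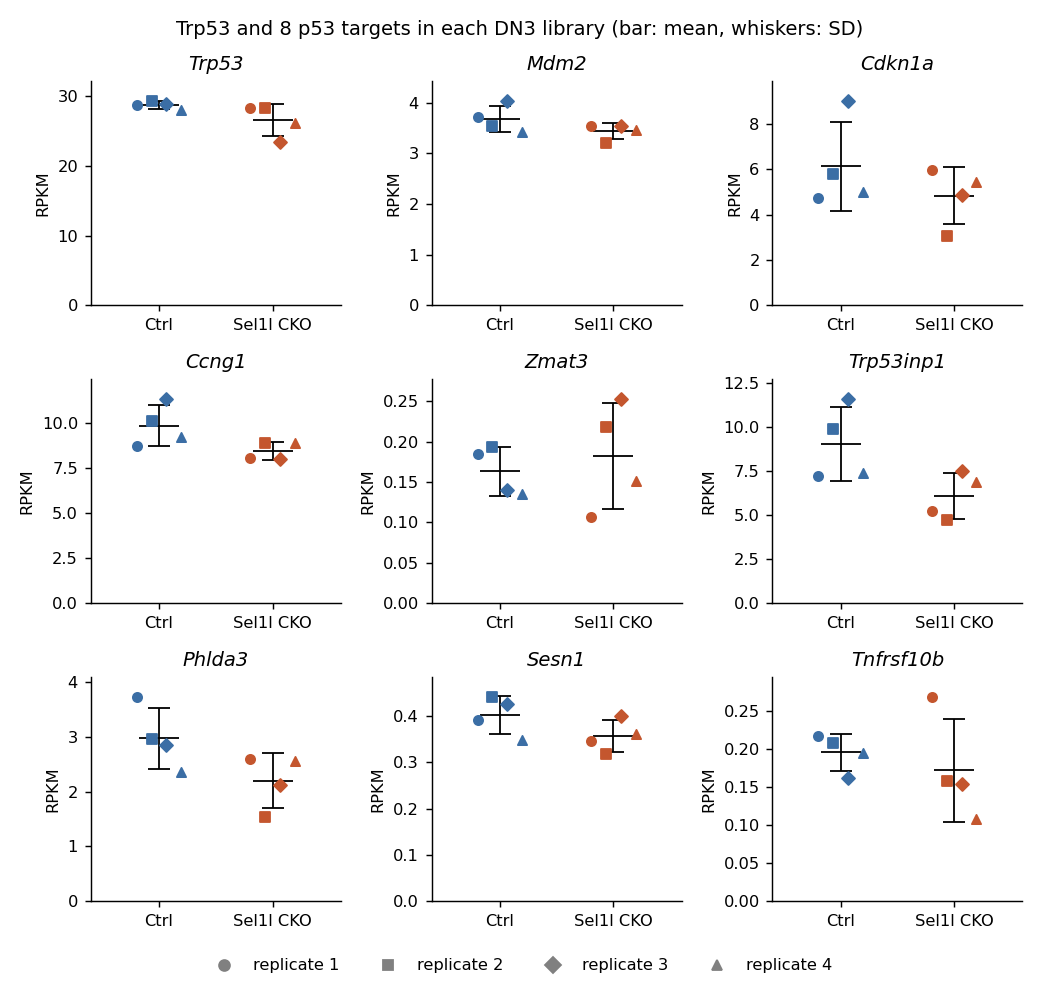
RPKM of Trp53 and 8 of its targets in each library of Ctrl (blue) and Sel1l CKO (orange) DN3 thymocytes, with 1 marker shape per replicate number, the mean as a horizontal bar and the SD as whiskers (n = 4), and every axis starting at 0. The groups overlap in every panel, and Ctrl replicate 3 stands highest of the Ctrl libraries for Mdm2, Cdkn1a, Ccng1 and Trp53inp1.

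Trp53 (ENSMUSG00000059552.13, chromosome 11 of GRCm38, 69580359 to 69591873, plus strand) was at 28.7, 29.2, 28.8 and 27.9 RPKM in Ctrl replicates 1 to 4 and its Sel1l CKO values, in the same order, were 28.2, 28.2, 23.4 and 26.1 RPKM. The Ctrl libraries lay close together, and Sel1l CKO replicates 1 and 2 were within their range while replicates 3 and 4 were below it. Its mean ± SD was 28.6 ± 0.507 RPKM in Ctrl and 26.5 ± 2.30 RPKM in Sel1l CKO, each over n = 4. The log2 fold change was -0.12 (standard error 0.07, 95% interval -0.28 to 0.05, limma adjusted p = 0.390). Within replicates 1 and 2 alone it was -0.04, and within replicates 3 and 4 alone it was -0.20. Between 8851 and 16377 reads per library stood behind these values.

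Mdm2 (ENSMUSG00000020184.15, chromosome 10, 117688875 to 117710758, minus strand), the ubiquitin ligase that p53 induces and that degrades p53, was at 3.72, 3.54, 4.03 and 3.43 RPKM in Ctrl and at 3.54, 3.21, 3.54 and 3.47 RPKM in Sel1l CKO. All 8 values lay between 3.21 and 4.03 RPKM, and 3 of the 4 Sel1l CKO values were inside the Ctrl range. The log2 fold change was -0.09 (standard error 0.07, 95% interval -0.25 to 0.07, limma adjusted p = 0.484), the smallest difference of the 6 tested genes. The Mdm2 relative Mdm4, which restrains p53 by binding it, was at 4.14, 3.04, 4.31 and 3.83 RPKM in Ctrl and at 2.05, 2.35, 3.73 and 3.43 RPKM in Sel1l CKO. Sel1l CKO replicates 1 and 2 were below every Ctrl library for Mdm4 and replicates 3 and 4 were within the Ctrl range, with a log2 fold change of -0.42 (limma adjusted p = 0.252).

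Of the arrest genes, Cdkn1a (ENSMUSG00000023067.14, chromosome 17, 29090976 to 29100727, plus strand) encodes p21, the inhibitor of cyclin-dependent kinases through which p53 halts the cell cycle. It was at 4.72, 5.81, 8.99 and 4.99 RPKM in Ctrl and at 5.98, 3.07, 4.85 and 5.43 RPKM in Sel1l CKO. Ctrl replicate 3 was high and Sel1l CKO replicate 2 was low, and the other 6 libraries lay between 4.72 and 5.98 RPKM. The means were 6.13 ± 1.96 and 4.83 ± 1.26 RPKM (SD, n = 4 each), with a log2 fold change of -0.33 (standard error 0.24, 95% interval -0.88 to 0.22, limma adjusted p = 0.462). Without Ctrl replicate 3 and Sel1l CKO replicate 2 together, an alternative chosen after seeing the data, it was 0.07 (limma adjusted p = 0.862).

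Ccng1 (ENSMUSG00000020326.7, chromosome 11, 40748552 to 40755311, minus strand), cyclin G1, acts with the phosphatase PP2A on MDM2. It was at 8.72, 10.1, 11.3 and 9.22 RPKM in Ctrl and at 8.05, 8.88, 7.99 and 8.89 RPKM in Sel1l CKO. The Sel1l CKO libraries lay close together, and only Ctrl replicate 1 was as low as the highest of them. The means were 9.83 ± 1.13 and 8.45 ± 0.499 RPKM (SD, n = 4 each), and the log2 fold change was -0.21 (standard error 0.09, 95% interval -0.41 to -0.01, limma adjusted p = 0.222). The interval is that of a single gene, and with adjustment over all tested genes the difference did not pass.

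Trp53inp1 (ENSMUSG00000028211.11, chromosome 4, 11156431 to 11174379, plus strand) encodes a stress protein that promotes p53 phosphorylation and also takes part in autophagy. It was at 7.21, 9.88, 11.6 and 7.39 RPKM in Ctrl and at 5.22, 4.74, 7.48 and 6.87 RPKM in Sel1l CKO. Sel1l CKO replicate 3 was above the 2 lowest Ctrl libraries and the other 3 were below every Ctrl library. The means were 9.01 ± 2.09 and 6.08 ± 1.31 RPKM (SD, n = 4 each), and the log2 fold change was -0.56 (standard error 0.19, 95% interval -0.98 to -0.13, limma adjusted p = 0.137). Replicates 1 and 2 alone gave -0.75 and replicates 3 and 4 alone gave -0.36. Leaving out 1 library at a time gave values from -0.66 to -0.43 and adjusted p values from 0.107 to 0.296 with limma, and the lowest adjusted p of all alternatives run was 0.0654, with a term that set replicates 1 and 2 against 3 and 4.

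Phlda3 (ENSMUSG00000041801.5, chromosome 1, 135766119 to 135769136, plus strand), whose product competes with AKT for membrane lipids and so restrains survival signalling, was at 3.72, 2.95, 2.85 and 2.36 RPKM in Ctrl and at 2.59, 1.53, 2.12 and 2.56 RPKM in Sel1l CKO. Ctrl replicate 4 was below the highest Sel1l CKO libraries, replicates 1 and 4, and Sel1l CKO replicate 2 was the lowest of all. The means were 2.97 ± 0.560 and 2.20 ± 0.494 RPKM (SD, n = 4 each), and the log2 fold change was -0.43 (standard error 0.18, 95% interval -0.83 to -0.02, limma adjusted p = 0.220). Replicates 1 and 2 alone gave -0.70 and replicates 3 and 4 alone gave -0.15. Reads were fewer here than for the other tested genes, 211 to 456 per library.

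The remaining 3 genes had a mean below 1 RPKM and were compared by an exact permutation test, two-sided, whose smallest possible p for 4 libraries against 4 is 0.0286, and by voom. Sesn1 (ENSMUSG00000038332.13, chromosome 10, 41809935 to 41908424, plus strand) encodes sestrin 1, which restrains mTORC1 and limits oxidative damage. It was at 0.390, 0.440, 0.426 and 0.348 RPKM in Ctrl and at 0.346, 0.317, 0.399 and 0.362 RPKM in Sel1l CKO, on 1165 to 2057 reads per library. The ranges overlapped (exact permutation p = 0.171), and the voom log2 fold change was -0.19 (95% interval -0.41 to 0.04, adjusted p = 0.331). Its RPKM was low because the deposited values use a length that includes introns, and the gene spans 98490 bases.

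Zmat3 (ENSMUSG00000027663.12, chromosome 3, 32334792 to 32366014, minus strand) encodes an RNA-binding zinc finger protein that acts on splicing. It was at 0.185, 0.193, 0.140 and 0.135 RPKM in Ctrl and at 0.107, 0.218, 0.252 and 0.152 RPKM in Sel1l CKO. The Sel1l CKO libraries spread on both sides of the Ctrl range (exact permutation p = 0.686). The voom log2 fold change was 0.09 (95% interval -0.50 to 0.69, adjusted p = 0.872), on 126 to 343 reads per library, and the SD of Zmat3 was 0.0300 RPKM in Ctrl and 0.0653 RPKM in Sel1l CKO. Tnfrsf10b (ENSMUSG00000022074.6, chromosome 14, 69767472 to 69784411, plus strand), the death receptor for TRAIL, was at 0.218, 0.208, 0.163 and 0.196 RPKM in Ctrl and at 0.268, 0.158, 0.154 and 0.108 RPKM in Sel1l CKO. Sel1l CKO replicate 1 was the highest of all libraries and the other 3 were below every Ctrl library (exact permutation p = 0.429). The voom log2 fold change of Tnfrsf10b was -0.25 (95% interval -0.85 to 0.35, adjusted p = 0.625), on 60 to 172 reads per library.

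The log2 fold change was below 0 for 6 of the 6 tested genes by limma, where 47.4% of all tested genes were below 0, and for 8 of 9 by voom, where 53.6% were. The median of the 6 was -0.27 and the median of all tested genes was 0.01. The DN3 marker list also lay lower, with 9 of 10 genes below 0 by limma and a median of -0.22. For 3 of these 10 markers every Sel1l CKO library was below every Ctrl library (5.59% of tested genes). These counts describe the lists and carry no test. The genes share libraries. Sel1l CKO replicate 2 was the lowest Sel1l CKO library for 5 of the 9 genes (Mdm2, Cdkn1a, Trp53inp1, Phlda3 and Sesn1). Ctrl replicate 3 was the highest Ctrl library for 4 of the 9. Going the other way, Ctrl replicate 4 was the lowest Ctrl library for 5 of the 9 and the highest for 0. Likewise, Sel1l CKO replicate 3 was the highest Sel1l CKO library for 4 of the 9.

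**Figure D2:**
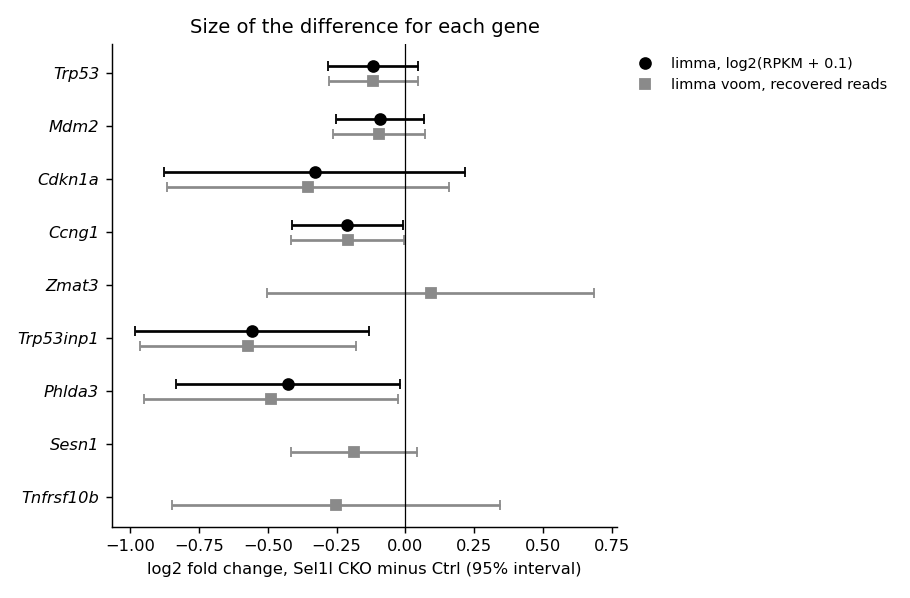
log2 fold change of each gene (Sel1l CKO minus Ctrl, horizontal axis) with its 95% interval, from limma on log2(RPKM + 0.1) for the 6 genes tested (black circles) and from limma voom on recovered reads for all 9 (grey squares). The intervals of Ccng1, Trp53inp1 and Phlda3 lie below 0 without adjustment for the number of genes tested. Those of Trp53 and Mdm2 are narrow, lie mostly below 0 and include 0, and those of Zmat3 and Tnfrsf10b are wide.

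Levels of different genes can be set side by side only per length of mature transcript, so the recovered reads were also divided by exon length. On that scale Trp53 was the highest, at 81.6 ± 1.44 RPKM in Ctrl (SD, n = 4). Trp53inp1 at 25.0 ± 5.79, Ccng1 at 18.9 ± 2.17, Cdkn1a at 16.8 ± 5.38 and Mdm2 at 15.8 ± 1.12 RPKM on exon length came next, and each overlapped its neighbour in this order. Sesn1 at 9.86 ± 1.01 and Phlda3 at 5.75 ± 1.08 RPKM on exon length overlapped neither of their neighbours. Tnfrsf10b at 0.609 ± 0.0744 and Zmat3 at 0.446 ± 0.0819 RPKM on exon length were the lowest and overlapped each other. In Sel1l CKO the order was the same except that Mdm2 (14.8 ± 0.681) came before Cdkn1a (13.3 ± 3.46) and the ranges of these genes overlapped.

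The level of p53 mRNA says little without its regulators, so 20 genes that act on p53 were examined. Of these, 11 were tested by limma. Among them 0 passed the adjusted p (5.28% of all tested genes) and 2 had an unadjusted p under 0.05 (20.8%). By voom 0 of 17 passed the adjusted p (4.3% of all tested genes) and 6 had an unadjusted p under 0.05 (20.6%). All 6 were lower in Sel1l CKO. The median log2 fold change of the 11 was 0.00 by limma. By voom the median of the 17 was -0.05 and that of all tested genes -0.02. Cdkn2a, whose ARF product blocks MDM2, was at no more than 0.0128 RPKM in any library. The kinase gene Atm, which relays DNA breaks to p53, was at 0.862, 0.814, 0.679 and 0.751 RPKM in Ctrl and at 0.573, 0.713, 0.684 and 0.690 RPKM in Sel1l CKO (exact permutation p = 0.114). The voom log2 fold change of Atm was -0.22 (voom adjusted p = 0.224). Of the 20 regulators, 1 had every Sel1l CKO library below every Ctrl library and 0 had every one above (4.94% and 5.32% of all genes with a value). It was the kinase gene Prkdc, named after its values were seen (exact permutation p = 0.0286). Its voom log2 fold change was -0.37 (voom adjusted p = 0.0916). The ribosomal protein genes Rpl5 and Rpl11, whose products can hold back MDM2, had log2 fold changes of 0.04 (limma adjusted p = 0.772) and 0.07 (limma adjusted p = 0.616).

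Other known p53 targets were examined as 50 genes in 4 lists by function, of which 49 were in the table and 26 were tested by limma. Sesn2 rose and Btg2 and Trp53i11 fell, which is 1 higher and 2 lower, against 4.27% higher and 1.01% lower among all tested genes. The log2 fold change was above 0 for 13 of the 26 and below 0 for 13. By voom 1 of 45 was higher and 2 were lower, against 2.92% and 1.38% of all genes tested. Over the 48 with a value, 2 had every Sel1l CKO library above every Ctrl library and 5 had every one below, against 5.32% and 4.94% of all genes with a value. The DNA repair list had 0 of 4 tested genes past the adjusted p by limma (5.28% of all tested genes), with 1 at an unadjusted p under 0.05 (20.8%). By voom it had 0 of 8 (4.3% of all tested genes), with 2 at an unadjusted p under 0.05 (20.6%). Its most abundant genes were Aen, which was put in this list but encodes a nuclease of apoptosis, and Ddb2, a damage sensor. They had log2 fold changes of -0.02 (limma adjusted p = 0.927) and -0.32 (limma adjusted p = 0.160).

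Sesn2, the paralogue of Sesn1 in the metabolism list and known as a target of ATF4 as well as of p53, was at 0.587, 0.494, 0.531 and 0.389 RPKM in Ctrl and at 1.05, 2.01, 1.41 and 1.53 RPKM in Sel1l CKO. Every Sel1l CKO library was above every Ctrl library, and Sesn2 rose by 1.39 on the log2 scale (limma adjusted p = 0.00178), a call that held in 8 of 8 fits without 1 library. Its paralogue Sesn1 had a log2 fold change of -0.14 on the same scale, with overlapping groups. For context, limma tested 5 genes of a list of 6 ATF4 or CHOP targets, and 5 passed as higher (4.27% of all tested genes). These were Ddit3, Trib3, Chac1, Asns and Atf5. They rose by 1.34 to 4.62 on the log2 scale, with limma adjusted p values from 2.74e-06 to 0.00178. By voom 4 of 6 passed as higher (2.92% of all tested genes), and Trib3 did not (voom adjusted p = 0.0569). Atf3, below the filter, went the other way (voom log2 fold change -1.72, voom adjusted p = 0.716). The part of ATF4 in the rise of Sesn2 was not tested. The other genes of the metabolism list with high levels, Gpx1 and Ddit4, had log2 fold changes of -0.03 (limma adjusted p = 0.852) and -0.18 (limma adjusted p = 0.563).

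Btg2, an antiproliferative gene of the cell cycle list and also an immediate early gene, was at 38.0, 47.1, 82.0 and 73.9 RPKM in Ctrl and at 32.3, 20.5, 29.3 and 31.2 RPKM in Sel1l CKO. Ctrl replicates 3 and 4 were the highest, every Sel1l CKO library was below every Ctrl library, and Btg2 fell by 1.04 on the log2 scale (limma adjusted p = 0.0466). The call was lost in 7 of 8 fits without 1 library, with an adjusted p of up to 0.120 without Ctrl replicate 4. Trp53i11, of the cell death list, was at 24.8, 24.9, 27.6 and 23.8 RPKM in Ctrl and at 17.9, 20.5, 19.3 and 22.3 RPKM in Sel1l CKO, and fell by 0.34 on the log2 scale (limma adjusted p = 0.0499), also lost in 7 of 8 such fits (up to 0.132 without Ctrl replicate 3). Of the genes that did not pass, Siva1 and Pidd1 of the death list had log2 fold changes of 0.22 (limma adjusted p = 0.307) and 0.18 (limma adjusted p = 0.417), and Ier5 and Sfn of the cell cycle list 0.12 (limma adjusted p = 0.780) and -0.14 (limma adjusted p = 0.387). Of the p53 targets of the BCL2 family, Bax was at 14.7 ± 0.429 RPKM in Ctrl against 15.8 ± 0.807 in Sel1l CKO (± SD over 4 libraries, limma adjusted p = 0.384), and Bbc3 at 1.07 ± 0.247 and 0.837 ± 0.170 RPKM (exact permutation p = 0.229).

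**Figure D3:**
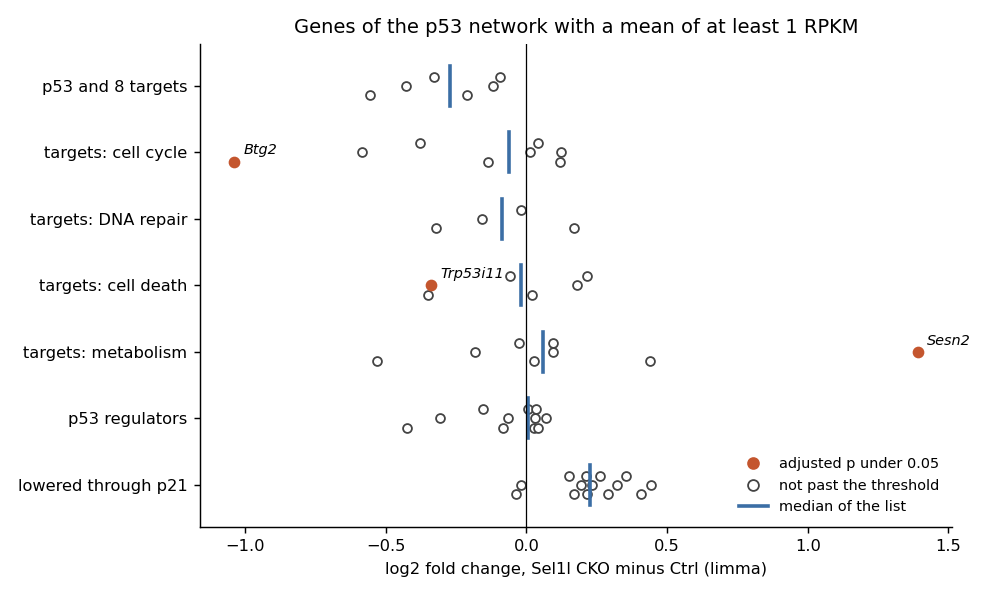
log2 fold changes (Sel1l CKO minus Ctrl, horizontal axis) of the genes with a mean of at least 1 RPKM in 7 lists of the p53 network, 1 point per gene, with points past limma's adjusted p of 0.05 filled and named and the median of each list as a blue bar. Only Sesn2, Btg2 and Trp53i11 are filled, and the points of the p53 and target list are all to the left of 0 and unfilled.

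Genes that p21 lowers through the DREAM complex are the reverse side of a p53 response, and 15 of them, cyclins, mitotic kinases and replication genes, were examined. By limma 0 of 14 passed the adjusted p (5.28% of all tested genes), with 0 at an unadjusted p under 0.05 (20.8%). By voom 0 of 15 passed (4.3% of all tested genes), with 2 at an unadjusted p under 0.05 (20.6%). The log2 fold change was above 0 for 12 of the 14, with a median of 0.23 against 0.01 for all tested genes. Cdc20, a mitotic activator, was at 34.8, 30.8, 19.9 and 38.6 RPKM in Ctrl and at 50.4, 46.3, 34.1 and 35.4 RPKM in Sel1l CKO (limma adjusted p = 0.268). Mcm5, of the replicative helicase, was at 27.6, 28.4, 24.9 and 28.5 RPKM in Ctrl and at 37.2, 34.8, 26.8 and 24.6 RPKM in Sel1l CKO (limma adjusted p = 0.530). Ctrl replicate 3, with the highest Cdkn1a, Mdm2, Ccng1 and Trp53inp1 of the Ctrl libraries, was the lowest Ctrl library for 15 of these 15 genes. The highest Ctrl library was replicate 4 for 13 of the 15 and replicate 1, which had the lowest Cdkn1a in Ctrl, for 2. Sel1l CKO replicate 2, with the lowest Cdkn1a, was the highest Sel1l CKO library for 9 of the 15 and replicate 1 for the other 6. In Ctrl replicate 3 the mean of the 14 tested genes was -0.39 relative to the Ctrl mean on the log2 scale, and Cdkn1a was 0.59. Sel1l CKO replicate 1 went the other way, with the highest Cdkn1a of its group (0.01 relative to the Ctrl mean) and the 14 genes at a mean of 0.44, beside 0.51 in replicate 2. Replicates 3 and 4 of Sel1l CKO, with Cdkn1a at -0.28 and -0.12 relative to the Ctrl mean, had the 14 genes at a mean of -0.01 and -0.02. These are values of single libraries within a group, found by looking at the data, and no test was made of them.

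A list of 11 immediate early and cytosolic heat shock genes also differed between libraries within each group. Their summed level was 585, 437, 2637 and 3938 RPKM in Ctrl replicates 1 to 4 and 316, 210, 528 and 604 RPKM in Sel1l CKO. Ctrl replicates 3 and 4 stood far above the other 6 libraries. Of the list, 10 genes were tested by limma and 3 passed as lower, against 1.01% of all tested genes. These were Hspa1a (-5.23, limma adjusted p = 0.0338), Hspa1b (-4.96, limma adjusted p = 0.0333) and Hsph1 (-0.98, limma adjusted p = 0.00786). The highest that did not pass were Junb (-1.04, limma adjusted p = 0.428) and Jun (-1.52, limma adjusted p = 0.0919). By voom 1 of 11 passed as lower (1.38% of all tested genes), which was Hsph1 (voom adjusted p = 0.00419). Hspa1a (voom adjusted p = 0.109) and Hspa1b (voom adjusted p = 0.0694) did not pass by voom. The limma calls of Hspa1a and Hspa1b were each lost in 6 of 8 fits without 1 library, and that of Hsph1 in none of them. Cdkn1a and Trp53inp1 were high in Ctrl replicate 3 and not in replicate 4, where Cdkn1a was at -0.24 and Trp53inp1 at -0.25 relative to the Ctrl mean on the log2 scale. Of the other p53 targets, Btg2 and, chosen after their values were seen, Gadd45a, Plk2 and Plk3 were highest in Ctrl replicates 3 and 4. Gadd45a, which binds PCNA and slows the cycle, was at 3.39, 3.38, 8.37 and 6.68 RPKM in Ctrl and at 2.84, 3.16, 3.32 and 4.13 RPKM in Sel1l CKO. The part of these libraries in the difference of Btg2 was not tested.

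**Figure D4:**
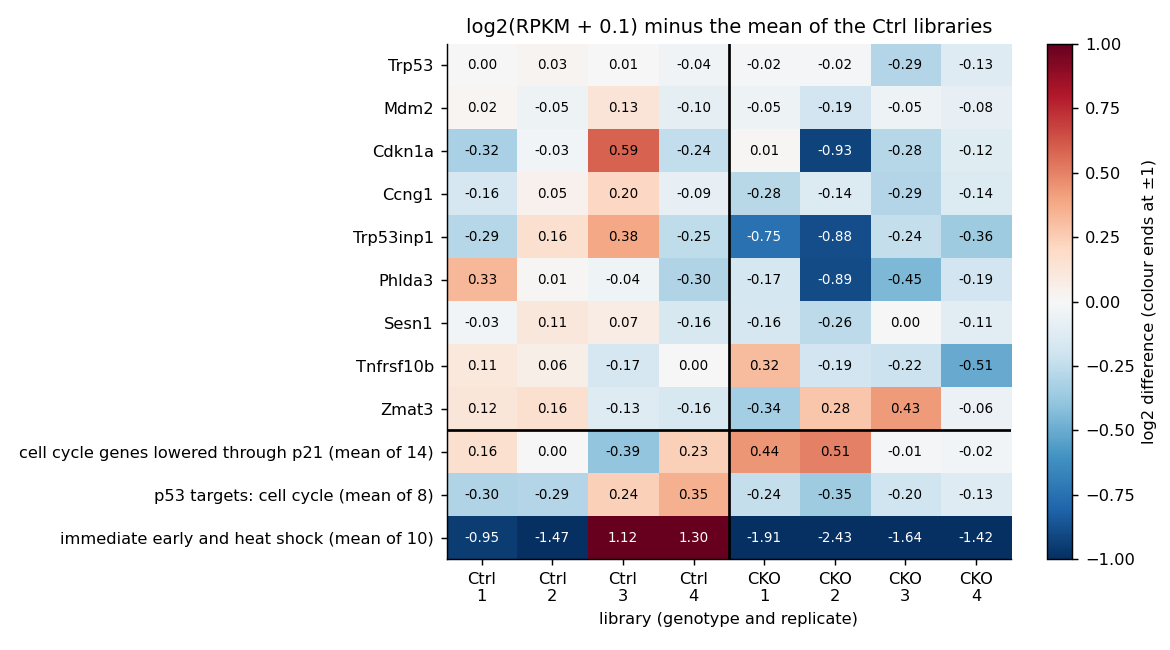
log2(RPKM + 0.1) in each library (columns) minus the mean of the 4 Ctrl libraries, for the 9 genes of the p53 list and the mean over the tested genes of 3 further lists (rows below the line), with colour that ends at ±1 and the value printed in each cell. Ctrl replicate 3 is high for Cdkn1a (0.59) and low for the cell cycle genes lowered through p21 (-0.39), Sel1l CKO replicate 2 is low for Cdkn1a (-0.93), Trp53inp1 (-0.88) and Phlda3 (-0.89), and the immediate early and heat shock row is high in Ctrl replicates 3 and 4.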

How the data were processed

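Sorted DN3 thymocytes of Ctrl and Sel1l CKO mice were profiled by RNA-seq in 4 libraries each. Per the labels and the methods, the authors prepared stranded libraries from mRNA, mapped paired-end reads to GRCm38 with STAR 2.5.2b, counted protein-coding genes with HTSeq (given as 2.7), tested them with DESeq2, and deposited RPKM values, 1 column per library. Whether counting used the strand is not given in the sources used here. No member overlapped another gene of the table.

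Whole reads were recovered from the steps of the RPKM values. The annotated gene span with introns (GENCODE M21) gave whole reads in every library for 74.5% of 15643 genes, against 2.94% with exon length, within 0.01 read for small counts. For 4142 genes the length was solved from the values. Recovered reads sum to 95.5% to 98.8% of the library totals, and among the members Zmat3, Phlda3 and Tnfrsf10b had the fewest reads.

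RPKM values were analysed as log2(RPKM + 0.1) with limma 3.58.1 in R 4.3.3 (trend, genotype only, mean of at least 1 RPKM, Benjamini-Hochberg), and the recovered reads with limma voom (mean of at least 10 reads). Genes below the filter were compared over all 70 assignments of the 8 libraries. Tables and figures used Python 3.11.15. The fits were also run on simulated reads with set changes larger than those of the members. That run does not tell whether differences of the members' size would be found. Named are all members, Mdm4, Cdkn2a, Atm, Sel1l and, per list, the genes past the adjusted p (at most 5) and up to 2 of the most abundant others. Cell type markers were named outside this rule and are not marked. Other genes named after their values were seen are marked so in the text. Members and lists were chosen with earlier results of these data known. Alternatives were pseudocounts of 1 and 0.01, other filters, scalings, lengths and weights, a replicate block, a term for replicates 1 and 2 against 3 and 4, and each library left out.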

Additional observations from a re-analysis of the deposited data

Results flagged for a closer look

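In the 68 groups of 4 libraries examined, 2 values stood apart from the other 3 by Dixon's criterion, which chance gives in about 1 in 20 groups. Aen, a p53-induced nuclease, was at 4.17 RPKM in Ctrl replicate 1 and between 3.31 and 3.40 RPKM in the other Ctrl libraries. Gpx1, glutathione peroxidase 1, was at 131 RPKM in Ctrl replicate 1 and between 145 and 146 RPKM in the other Ctrl libraries. No gene of the p53 list met the criterion in either group.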

How the results depend on the processing

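The number of genes of the p53 list past the adjusted p was 0 in every alternative run. Cdkn1a went from -0.33 to 0.066 without Ctrl replicate 3 and Sel1l CKO replicate 2 together, an alternative added after seeing the data, and from -0.44 to -0.13 without 1 library. Zmat3 went from 0.076 to -0.033 without both, and ran from -0.040 to 0.22 without 1 library. Every other gene of the list kept its direction in every alternative run, and so did Sel1l. Sel1l no longer passed with no filter (-0.59, adjusted p = 0.0904), with libraries rescaled to the same sum (-0.60, 0.0649) and without both libraries (-0.52, 0.119), and ran from -0.69 to -0.51 without 1 library. Of the other p53 targets, 1 passed with no filter, 1 with a mean RPKM of at least 0.1 and 5 with array weights, and 1 to 2 without 1 library, where Ctrl replicates 2, 3 and 4 and Sel1l CKO replicate 3 each left only 1. Over all tested genes 344 passed. The number was 218 at a mean RPKM of at least 5, 640 with array weights and 525 with a term for replicates 1 and 2 against 3 and 4, and 243 to 317 without 1 library. The causes were not tested.

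Same-numbered Ctrl and Sel1l CKO libraries correlated in their deviations from the group means at 0.162, 0.0973, 0.445 and 0.00514, so the numbers were not read as a pairing. Of the 4 Ctrl libraries, 1 (replicate 3) correlated best with its own number. Ctrl replicate 3 correlated with Sel1l CKO replicates 3 and 4 at 0.445 and 0.404, and with replicates 1 and 2 at -0.376 and -0.359. The labels name no batch, and the cause was not tested. With a replicate block 317 genes passed, Sel1l did not (-0.59, adjusted p = 0.0601) and Trp53i11 did not (adjusted p = 0.0961), and Trp53inp1 had an adjusted p of 0.0816.

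Zmat3 and Tnfrsf10b had the fewest reads, down to 126 and 60 in a library, and the part of depth in their wide intervals was not tested.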
